A study of Mus musculus with 3 samples.

Results

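The cells described here are the 136 hematopoietic stem cells (HSCs) of 1 preparation whose barcodes were rich in both open chromatin and RNA. They were taken from 3757 called cells, of which they made up 3.62%, by requiring at least 18000 ATAC fragments and at least 6000 RNA UMIs (unique molecular identifiers, each standing for 1 captured RNA molecule). They were set beside 1282 ordinary cells with 8000 to 14000 fragments and 3000 to 5000 UMIs. The HSCs came from bone marrow of wild-type C57BL/6 mice (C57BL/6J in the study's methods) that were female and 8 weeks old, were enriched for c-Kit with beads, and were sorted as LSK CD150+CD48-CD34- cells. They were permeabilized with digitonin and profiled by DOGMA-seq, which reads open chromatin (ATAC), RNA and antibody tags from the same cell. All cells shared 1 strain, 1 age, 1 sort and the same 3 libraries, and the sources used here do not give how many animals were pooled. There was no treatment and no second preparation, so cells are not replicates of a condition, no test between groups of cells was made, and every interval below is an exact 95% interval within this 1 preparation, of counting error for fragments and of the draw of cells for medians and shares of cells. All 3757 called barcodes had both fragments and UMIs, all 136 rich and all 1282 ordinary cells had over 3000 fragments in peaks and over 15% of fragments in peaks, and no doublet caller was applied.

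HSCs are the rare marrow cells that maintain all blood lineages, and most of them rest outside the cell cycle. In ATAC, the transposase Tn5 cuts accessible DNA, and each sequenced fragment is the stretch between a pair of cuts on 1 DNA copy. A nucleus that has not replicated its DNA carries 2 copies of each autosome, so at most 2 of its fragments should lie over the same autosomal base. A nucleus that has replicated, or a barcode that holds 2 nuclei, carries 4 copies, and more than 2 overlapping fragments then become possible. Copies from a replicated nucleus and copies from 2 nuclei cannot be told apart by this count. Cycling cells also transcribe S phase genes, which build and repair DNA, and G2/M genes, which condense and separate chromosomes. The promoters of many G2/M genes carry the CHR element and CCAAT boxes, and those of many S phase genes carry E2F sites.

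The rich cells were chosen by their fragments and UMIs, so both are given only as a description. The 136 rich cells held from 18000 to 194399 fragments, with a median of 23862.5, and from 6046 to 52809 UMIs, with a median of 7606. The ordinary cells had medians of 11325.5 fragments and 3837.5 UMIs. In sum, the rich cells held 3587734 fragments, 9.33% of those of all called cells, and 1147345 UMIs, 7.54% of them. The ratio of the 2 readouts was close in both groups, with a median of 3.06 fragments per UMI in rich cells and 2.93 in ordinary cells. Of cells deep in 1 readout only, 64 had at least 18000 fragments with under 6000 UMIs and 182 had at least 6000 UMIs with under 18000 fragments. Among these, 26 had UMIs in the ordinary range (ATAC-rich only) and 67 had fragments in the ordinary range (RNA-rich only), and both were compared as well. The range of the rich group was set at its top by 4 cells above 40000 fragments, with 57390, 59414, 66654 and 194399 fragments. Their UMI numbers were 13855, 8797, 6046 and 52809. These 4 cells stood apart from the rest of the rich group, and the counts that they weigh on most are also given without them.

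**Figure D1:**
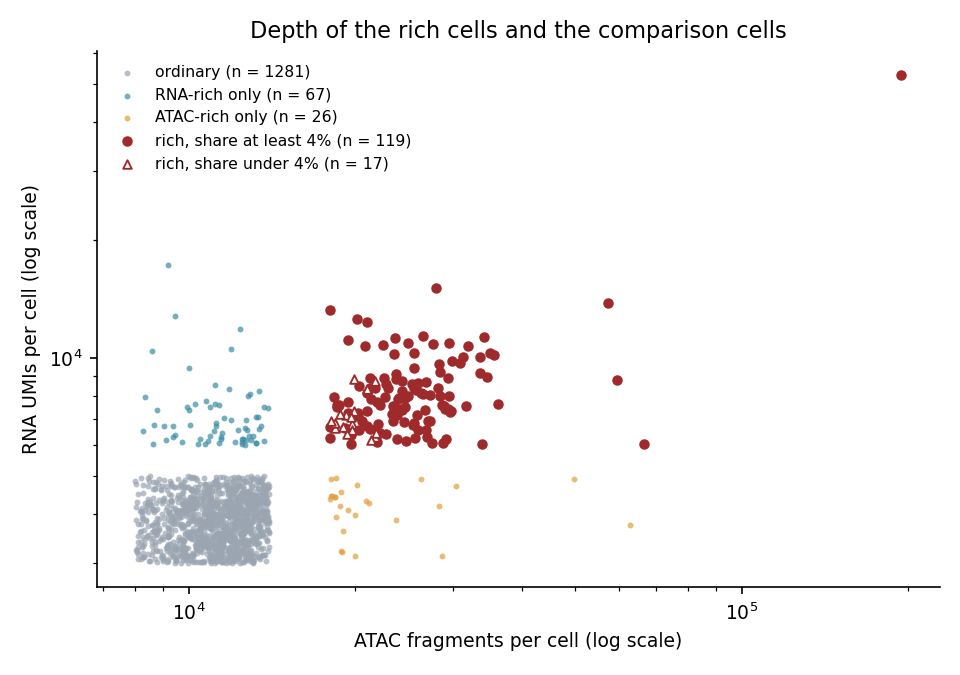
ATAC fragments (x axis, log scale) against RNA UMIs (y axis, log scale) of the 4 groups of called cells, 1 point a cell, with ordinary, ATAC-rich only, RNA-rich only and rich cells in color and rich cells of a triple share under 4%, a measure of overlap, as open triangles. The 136 rich cells lie above 18000 fragments and 6000 UMIs, and 1 of them lies far out at 194399 fragments.

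The first question was whether rich cells carried more than 2 overlapping fragments at more sites than ordinary cells once both were read at the same depth. Each cell was thinned to 8000 nuclear fragments, and the 500 bp tiles of chromosomes 1 to 19 in which more than 2 fragments of the cell overlapped were counted. When every deposited fragment was counted, rich cells had fewer such sites, with a mean of 8.99 and a median of 9 against a mean of 11.5 and a median of 11 in the 1281 ordinary cells deep enough. The log2 ratio of the means was -0.36 (-0.44 to -0.27). No rich cell, 0 of 136, had more sites than a Poisson model of all cells allowed at an adjusted p under 0.01, which allows a share of up to 2.68%, and no ordinary cell did either, 0 of 1281, which allows up to 0.288%.

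This count turned round when fragments that share an end were treated as 1. Over all called cells, 2.60% of fragments shared a start or an end with another fragment of the same cell, and the median per cell was 2.88% in rich and 2.59% in ordinary cells. Fragments with a common end need not be separate DNA copies, so in a count chosen after seeing the data only 1 of them was kept before thinning. Rich cells then had a mean of 5.35 sites and a median of 5, against a mean of 1.78 and a median of 2 in 1259 ordinary cells, a log2 ratio of 1.59 (1.47 to 1.71). The mean was 2.54 in ATAC-rich only and 2.61 in RNA-rich only cells. The Poisson rule then marked 17 of the 136 rich cells, 12.5% (7.45% to 19.3%), and 0 of 1259 ordinary cells. The direction of the comparison at equal depth therefore depended on whether shared ends were collapsed, and the overlap counts below use collapsed fragments.

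At full depth the rich cells separated from the ordinary cells. A rich cell had a median of 1416.5 doubly covered sites, where at least 2 of its fragments overlapped, against 330 in ordinary cells. It had a median of 119.5 triply covered sites, where more than 2 overlapped, with a range of 4 to 4265, against a median of 4 and a range of 0 to 15 in ordinary cells. The medians of triply covered sites were 12 in ATAC-rich only and 5 in RNA-rich only cells. Depth itself raises both counts, so triply covered sites were also expressed as a percentage of doubly covered sites, here called the triple share, in cells with at least 100 doubly covered sites. This measure and its limit of 4% were chosen after seeing the data. The triple share is itself lower in thinned cells, as given below. At full depth it is therefore not free of the fragment number by which the cells were chosen.

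The triple share was 8.29% at the median of the rich cells (8.02% to 8.43%), with quartiles of 7.14% and 9.03%. Its lowest value among rich cells was 0.682% and its highest was 28.7%. Ordinary cells had a median of 1.26% and a highest value of 3.87%, which left a gap below most of the rich group. A triple share of at least 4% was found in 119 of the 136 rich cells, 87.5% (80.7% to 92.5%), and in 0 of 1281 ordinary cells. These shares are at full depth, which is higher in rich cells by the rule, so the contrast is not free of that choice. Summed over cells thinned to equal depth, the triple share was 2.67% in rich and 0.971% in ordinary cells, a smaller gap in the same direction. Only 8 rich cells lay between 3% and 5%, near the limit. Cells rich in 1 readout were in between: 9 of 26 ATAC-rich only cells, 34.6% (17.2% to 55.7%), and 8 of 67 RNA-rich only cells, 11.9% (5.30% to 22.2%), reached 4%, with median triple shares of 1.89% and 1.54%. In the stricter group of at least 20000 fragments and 7000 UMIs, 79 of 81 cells reached it.

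**Figure D2:**
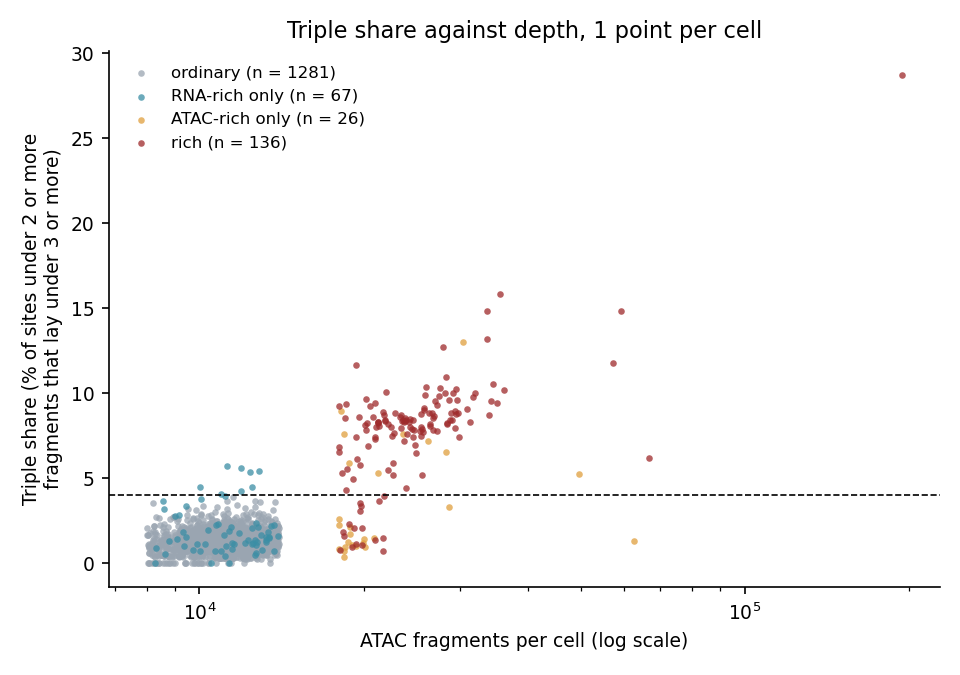
Triple share (y axis, percent of doubly covered sites that were triply covered) against ATAC fragments (x axis, log scale), 1 point a cell, with the limit of 4% as a line. At full depth, most rich cells sit near the median of 8.29% and all ordinary cells sit under 4%, the highest at 3.87%.

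Cells that were deep in ATAC alone had mostly a low triple share, though not at every depth. Of 64 cells with at least 18000 fragments but under 6000 UMIs, 24 reached 4%, or 37.5% (25.7% to 50.5%). At 18000 to under 20000 fragments, the limit was reached by 2 of 12 cells with 3000 to under 4500 UMIs, by 2 of 11 with 4500 to under 6000, by 6 of 17 with 6000 to under 7500 and by 8 of 9 with at least 7500. At 20000 to under 24000 fragments it was reached by 2 of 4, 5 of 8, 17 of 20 and 22 of 24 cells in the same ranges of UMIs. At 24000 to under 30000 fragments it was reached by 1 of 2, 5 of 6, 20 of 20 and 30 of 30 cells. Within each of these ranges of fragments the share of cells at the limit was higher in the cells with more UMIs, from small numbers of cells. The triple share was also taken at equal depth, from cells thinned to 8000 fragments and summed over the cells of a group, a measure added after seeing the data. It was then 2.67% in rich cells (2.48% to 2.87%), 0.971% in 1259 ordinary cells (0.931% to 1.01%), 1.42% in RNA-rich only cells (1.22% to 1.64%) and 1.60% in the 64 cells deep in ATAC alone (1.35% to 1.89%). Without the 4 deepest cells it was 2.67% in rich cells as well.

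The triple share of cells just outside the limits of the rule was close to that of cells just inside. It had a median of 4.75% in the 20 cells with 16000 to under 18000 fragments and at least 6000 UMIs, just outside, and of 4.60% in the 26 rich cells with 18000 to under 20000 fragments, just inside. On the RNA side the median was 6.30% in 24 cells with at least 18000 fragments and 5000 to under 6000 UMIs, just outside, and 7.83% in 41 rich cells with 6000 to under 7000 UMIs, just inside. Within the rich group the median was 8.19% in 44 cells of 20000 to under 24000 fragments, 8.45% in 50 cells of 24000 to under 30000, and 10.1% in 16 cells of at least 30000. In the thinned cells of these 4 ranges of fragments the summed share was 2.51%, 2.67%, 2.67% and 2.90%, with intervals that overlap. By count, 14 of 26 rich cells under 20000 fragments reached 4%, 53.8% (33.4% to 73.4%), against 105 of the other 110, 95.5% (89.7% to 98.5%).

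More than 4 overlapping fragments, which neither a replicated nucleus nor a pair of unreplicated nuclei would give, were nearly absent from most of the group. The median number of sites with more than 3 fragments was 5 in rich and 0 in ordinary cells, and the median with more than 4 was 0 in both. The deepest cell stood out most. It had 194399 fragments, 1550 sites with more than 3 and 516 sites with more than 4 overlapping fragments, a triple share of 28.7% and 40.4% of its fragments in peaks. The next 3 by depth had triple shares of 6.20%, 14.8% and 11.7%. They had 0, 16 and 2 sites with more than 4 overlapping fragments, and a rich cell of 35611 fragments had 3.

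The triply covered sites of the rich cells lay in many places and on every autosome. With recurrent tiles left out, they fell into 9305 tiles and 21316 pairs of tile and cell, and 5242 tiles, 56.3%, were triply covered in 1 rich cell only and the others in at least 2. The most widely shared tile was triply covered in 21 rich cells. Without the 4 deepest cells there were 7098 tiles and 15973 pairs, and 3980 tiles, 56.1%, were in 1 cell only. Summed over all 136 rich cells, in which deep cells weigh most, the triple share of an autosome ran from 8.79% on chromosome 16 (8.12% to 9.50%) to 11.4% on chromosome 10 (10.8% to 11.9%), and without the 4 deepest cells from 7.48% (6.82% to 8.19%) to 9.83% (9.27% to 10.4%) on the same chromosomes. In ordinary cells the autosomes ranged from 1.20% on chromosome 13 (1.03% to 1.38%) to 1.44% on chromosome 7 (1.31% to 1.57%), so on no autosome did the summed values of the 2 groups meet. These are values at full depth, which is higher in rich cells by the rule. Autosomes were not compared in thinned cells.

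A pair of the 3 most widely shared of these tiles is shown as sequence, because more than 2 fragments overlapped there in the most rich cells. The tile not shown, at the start of Slc35e1, was triply covered in 20 rich cells, as many as the second one shown. The first, chr1:180850501-180851000, lies 376 bp upstream of the start of Sde2, whose product acts in splicing and genome stability, and holds no annotated exon. It was triply covered in 21 of 136 rich cells, 15.4%, and in 3 of 1282 ordinary cells, 0.234%. The second, chr7:16286001-16286500, lies inside Ccdc9, 544 bp from its start, and was triply covered in 20 rich cells, 14.7%, and 3 ordinary cells. Both tiles were chosen for their number of rich cells, after tiles recurrent among called cells were left out. Leaving those out limits how many ordinary cells a remaining tile can hold. The counts are also at full depth, which is higher in rich cells by the rule, so this contrast is only a description. Each sequence is an exon-free stretch of 200 bases on the plus strand of GRCm38, chr1:180850685-180850884 and chr7:16286075-16286274. Capitals mark bases that lay under more than 2 fragments in at least 5 rich cells, and no base did so in more than 8 of them at the first or 7 at the second site.
Sde2 site: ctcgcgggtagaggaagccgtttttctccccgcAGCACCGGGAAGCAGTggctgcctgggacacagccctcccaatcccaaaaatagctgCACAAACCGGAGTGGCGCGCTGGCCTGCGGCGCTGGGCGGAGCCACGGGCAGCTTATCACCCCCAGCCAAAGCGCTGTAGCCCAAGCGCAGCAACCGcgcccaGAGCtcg
Ccdc9 site: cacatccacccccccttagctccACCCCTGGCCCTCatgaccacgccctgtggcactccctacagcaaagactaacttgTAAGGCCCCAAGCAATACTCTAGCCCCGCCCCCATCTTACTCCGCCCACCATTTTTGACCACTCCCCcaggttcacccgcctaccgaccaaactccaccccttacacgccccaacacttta

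The triple share was also followed along the genome, from gene-poor to gene-rich megabases. Early replicating DNA is in general rich in genes and late replicating DNA poor in them, so a nucleus in mid S phase carries more copies of the former. Bins of 1 Mb were ordered by their number of protein-coding genes and cut into 5 classes of like size, from 0 to 1 gene in the lowest to 14 to 67 genes in the highest. Summed over all 136 rich cells, the triple share was 5.77% in the gene-poorest class (4.86% to 6.78%), 9.20%, 9.44% and 9.56% in the next 3, and 10.4% in the gene-richest (10.3% to 10.6%). In the 119 cells at 4% or more, whose level is a description since they were selected on it, the lowest and highest class had 5.95% (5.01% to 7.02%) and 10.9% (10.7% to 11.1%). In those 119 without the 4 deepest cells the 5 values were 5.49% (4.45% to 6.69%), 8.36%, 8.50%, 8.47% and 9.14% (8.96% to 9.32%). Ordinary cells had 0.948% in the gene-poorest class and 1.20% to 1.40% in the others. At full depth the rich cells were thus above the ordinary cells in every class, and lowest in the gene-poorest one. The classes were not compared in thinned cells. With bins ordered by GC content the 5 values of the 136 cells were 8.10%, 9.17%, 9.50%, 9.73% and 10.3%. Those of ordinary cells were 1.58%, 1.33%, 1.33%, 1.31% and 1.32%, highest in the GC-poorest class. Whether replication timing, the density of open sites or the size of peaks set this order was not tested.

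**Figure D3:**
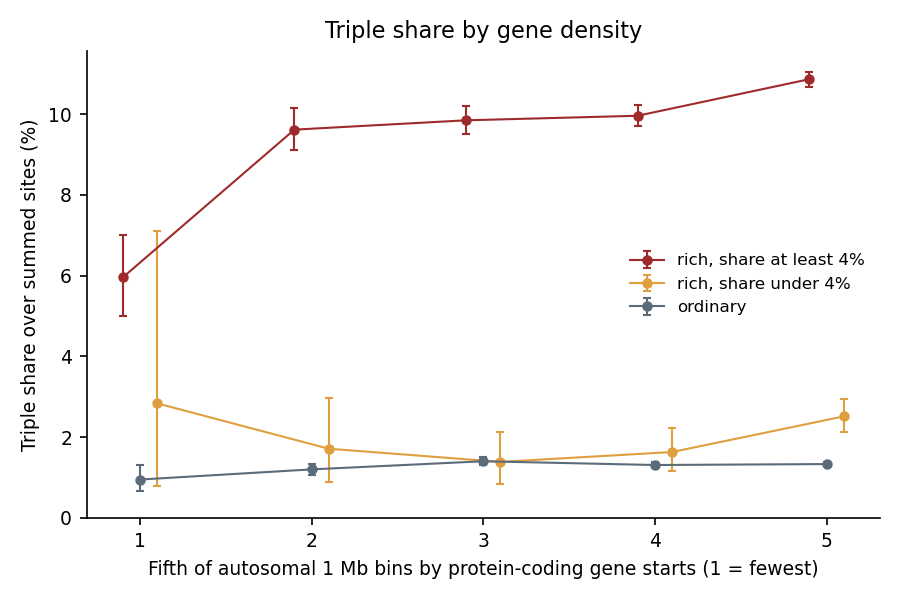
Triple share (y axis, percent) in 5 classes of 1 Mb bins from gene-poorest to gene-richest (x axis), summed over cells, with exact 95% binomial intervals as bars. Rich cells at 4% or more run from 5.95% to 10.9%, ordinary cells stay between 0.948% and 1.40%, and the 17 rich cells under 4% lie between 1.39% and 2.84%.

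Not all rich cells were alike, and 17 of the 136 had a triple share under 4%, with a median of 1.81%. These 17 cells lay near the lower limit of the rule, at 18080 to 21796 fragments with a median of 19706, and their median UMI number was 6850. Their chromatin was less focused. A median of 58.9% of their fragments lay in peaks, with a range of 35.5% to 67.7%, against 69.4% in the other 119. Fragments in tiles that few cells opened made up 41.0% against 30.0%, and fragments at starts of protein-coding genes 32.4% against 39.3%. Mitochondrial reads were 0.711% (0.157% to 1.22%) of their ATAC reads against 0.305% (0.245% to 0.404%). The dispersion of their fragments over chromosomes, a chi-square per degree of freedom against the ordinary cells at 8000 fragments, was 2.38 (1.80 to 3.41) against 1.74 (1.57 to 1.84). The medians of the 17 cells thus lay apart from those of the 119 in several ATAC measures. For mitochondrial reads and dispersion the intervals overlap. The part of background fragments in the depth of the 17 cells was not tested.

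Of RNA and ATAC composition, which the rule did not use, mitochondrial reads differed most in proportion, and the other medians lay within a few percentage points of each other. The median share of intronic UMIs, a sign of unspliced nuclear RNA, was 47.6% in rich and 48.9% in ordinary cells, 46.1% in ATAC-rich only and 50.6% in RNA-rich only cells. Duplicate reads made up 70.0% of ATAC reads against 70.3%, and fragments too short to span a nucleosome 45.4% against 45.7%. Fragments in peaks were 68.6% (67.7% to 69.6%) in rich and 70.7% in ordinary cells, and fragments at gene starts 51.1% against 52.5%. Mitochondrial reads were 0.346% (0.273% to 0.429%) of ATAC reads in rich, 0.221% in ordinary, 0.144% in ATAC-rich only and 0.312% in RNA-rich only cells. Rich cells detected a median of 3318.5 genes and ordinary cells 2014, a number that moves with UMIs. At 6000 to 8000 UMIs, rich cells had 0.446 genes per UMI (0.439 to 0.452, n = 78) and RNA-rich only cells 0.439 (0.432 to 0.444, n = 57), so the intervals of the medians overlapped.

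At 8000 fragments a cell, the rich cells covered slightly more distinct tiles than ordinary cells. They had a median of 7397.5 distinct 500 bp tiles, against 7187 in ordinary, 7440 in ATAC-rich only and 7261 in RNA-rich only cells. The dispersion over chromosomes was lower, 1.78 (1.63 to 1.87) against 1.96. The gene-poorest class of bins held 2.87% of the fragments of a rich cell at the median (2.69% to 3.00%), 2.44% in ordinary, 2.77% in ATAC-rich only and 2.70% in RNA-rich only cells, and the gene-richest class 47.5% in rich against 48.1% in ordinary cells. In the 4 deepest cells the gene-poorest class held from 6.52% to 10.4%.

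Gene accessibility was compared as fragments over the gene body and 2000 bp upstream per 10000 fragments of the group. Of 14092 protein-coding genes with at least 200 fragments over both groups, 958 were at least 25% higher in rich cells, 6.8%, and 1020 were at least 20% lower, 7.24%, the same limit as a ratio in either direction, and the median log2 ratio over all genes was -0.05. Divided instead by fragments around gene starts, 1999 were higher and 289 lower with a median of 0.07, so the split moved with the scaling, and lists are read below relative to the median of all genes. Without the 4 deepest cells, 978 were higher and 781 lower, with a median of -0.02. In bulk sums, fewer cells with an open gene and less opening per cell cannot be told apart.

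The proliferation markers Mki67, Top2a and Ccnb1 were read first, and their promoters are shown because the elements named above lie in such promoters. Mki67 encodes the chromosome surface protein Ki-67, Top2a the topoisomerase that untangles replicated DNA, and Ccnb1 the cyclin B1 that drives entry into mitosis. The bases upstream of each RefSeq start on GRCm38.p6 are printed 5′ to 3′ on the minus strand, the strand of all 3 genes. They span chr7:135716380-135716629 for Mki67, chr11:99024190-99024439 for Top2a and chr13:100786571-100786736 for Ccnb1, the last cut short upstream of a second annotated start. Capitals mark the strings TTTGAA (the CHR element) and CCAAT (the NF-Y box) on either strand, so that TTCAAA and ATTGG are their reverse complements.
Mki67: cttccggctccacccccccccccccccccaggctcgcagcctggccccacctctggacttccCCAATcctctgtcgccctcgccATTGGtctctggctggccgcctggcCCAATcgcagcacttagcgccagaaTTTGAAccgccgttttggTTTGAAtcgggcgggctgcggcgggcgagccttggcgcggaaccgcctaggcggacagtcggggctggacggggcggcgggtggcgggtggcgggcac
Top2a: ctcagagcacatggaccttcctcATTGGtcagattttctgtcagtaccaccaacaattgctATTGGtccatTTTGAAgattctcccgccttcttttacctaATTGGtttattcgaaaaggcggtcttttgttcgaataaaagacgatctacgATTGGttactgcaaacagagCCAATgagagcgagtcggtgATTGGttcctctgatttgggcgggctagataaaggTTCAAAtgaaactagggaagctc
Ccnb1: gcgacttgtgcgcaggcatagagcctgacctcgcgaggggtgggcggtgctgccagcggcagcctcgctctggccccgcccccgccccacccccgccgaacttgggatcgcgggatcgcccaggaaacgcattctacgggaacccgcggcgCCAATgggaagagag

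Over the 250 bases before the start, Mki67 held 2 TTTGAA and 3 CCAAT strings, Top2a 2 and 6, and Ccnb1 0 and 2, of which the second lies downstream of the printed stretch. Of 32851 promoters of that length, 16.0% held TTTGAA and 33.8% held CCAAT on either strand. The E2F strings TTTGGCGC, TTTCCCGC, TTTGGCGG and TTTCCCGG, each in under 1% of promoters, with shares of 0.417%, 0.895%, 0.444% and 0.989%, were in none of the 3. A match is only a string of letters and no binding was measured.

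Mki67 had 295 fragments in rich and 890 in ordinary cells, or 0.823 against 0.619 per 10000, a log2 ratio of 0.41 (0.22 to 0.60). Around its start alone the log2 ratio was 0.33 (0.11 to 0.54), and without the 4 deepest cells it was 0.45. Top2a had 259 and 885 fragments and a log2 ratio of 0.23 (0.03 to 0.43), with 0.14 (-0.08 to 0.36) around its start. Ccnb1 had 98 and 483 fragments and a log2 ratio of -0.30 (-0.62 to 0.02), an interval that holds 0. The 3 markers therefore did not move one way: only Mki67 passed the fold limit. At least 1 Mki67 fragment was found in 114 of 136 rich cells, 83.8%, and in 563 of 1282 ordinary cells, 43.9%. For Ccnb1, these shares were 45.6% and 28.8%, although its level per fragment had a log2 ratio of -0.30. Such shares of cells were taken at unlike depth and not in thinned cells, so they are given only as a description. For Mki67, log2 ratios to ordinary cells were -0.60 in ATAC-rich only cells, from 25 fragments, and -0.13 in RNA-rich only cells, from 43. Its log2 ratio was 0.45 in the 119 cells with a high and -0.06 (-0.78 to 0.57) in the 17 with a low triple share, the latter from 20 fragments.

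Among the S phase genes, 8 of 40 tested members passed the limit upward in rich cells and 0 downward, beside the 6.8% and 7.24% of all genes. The list's median log2 ratio was 0.05, 0.10 above that of all genes, and its summed level was 24.4 against 23.9 per 10000, a log2 ratio of 0.03 (-0.00 to 0.07). Without the 4 deepest cells, 9 of 39 were higher and the summed ratio was 0.09 (0.06 to 0.13). RNA-rich only cells had a summed S phase ratio of 0.13 (0.06 to 0.19) and a list median 0.13 above that of all genes, so a higher S phase level was not particular to the rich cells. In ATAC-rich only cells the summed ratio was -0.17 (-0.25 to -0.09), where the median of all genes was itself -0.17 and that of the list differed from it by -0.03.

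S phase genes past the fold included Exo1, a DNA exonuclease of mismatch repair, at 1.05 (0.63 to 1.47), Cdca7 at 0.81 (0.43 to 1.19), Dscc1, of the sister chromatid clamp loader, at 0.61 (0.13 to 1.06), Rrm1 and Rrm2, the subunits of ribonucleotide reductase, at 0.57 (0.29 to 0.84) and 0.35 (0.11 to 0.57), Pola1, the catalytic subunit of the polymerase that primes replication, at 0.44 (0.16 to 0.72), and the checkpoint gene Clspn at 0.36 (-0.03 to 0.73). The S phase genes with the most fragments did not rise. Gins2, of the replicative helicase, was at -0.20 (-0.34 to -0.06), the deubiquitinase gene Usp1 at -0.26 (-0.41 to -0.11) and Dtl, of the ubiquitin ligase that clears licensing factors, at -0.16 (-0.31 to -0.00).

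Of 54 tested G2/M genes, 5 passed the limit upward and 1 downward, beside the 6.8% and 7.24% of all genes. The list's median was 0.06, 0.11 above that of all genes, and its summed level 33.9 against 33.8 per 10000, a log2 ratio of 0.00 (-0.03 to 0.03). Without the 4 deepest cells, 6 of 54 were higher, 0 lower, and the summed ratio was 0.06 (0.03 to 0.09). The highest was Cdc20, the activator of the anaphase promoting complex, with 192 and 495 fragments and a log2 ratio of 0.64 (0.39 to 0.88), found in 68.4% of rich and 28.1% of ordinary cells. Cdc20 was at 0.50 (-0.02 to 0.99) in RNA-rich only cells, from 37 fragments. Gtse1 at 0.34 (0.01 to 0.66), Ccnb2, a second cyclin B, at 0.33 (-0.03 to 0.67) and the kinesin Kif2c at 0.38 (-0.00 to 0.76) also passed the fold, as did Mki67. Jpt1 was lower at -0.35 (-0.55 to -0.15). The best covered members were the nuclear lamina gene Tmpo at -0.11 (-0.22 to 0.01), the centromere gene Hjurp at 0.03 (-0.10 to 0.15) and Cdca2 at -0.21 (-0.35 to -0.07).

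**Figure D4:**
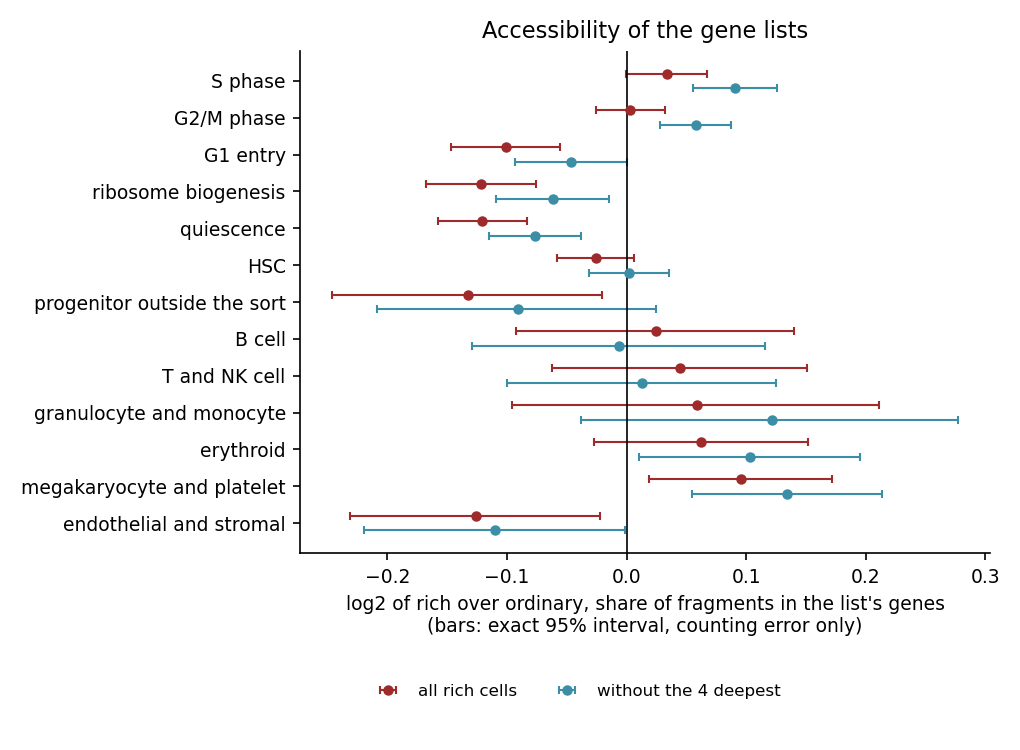
Log2 ratio of fragments in rich over ordinary cells (x axis) for the gene lists (y axis), summed over the genes of a list, with exact 95% intervals as bars, for all rich cells and without the 4 deepest. S phase moves from 0.03 to 0.09 and G2/M from 0.00 to 0.06 without those cells, and megakaryocyte and platelet genes lie at 0.10 (0.02 to 0.17).

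Genes of growth and cell cycle entry were at or slightly below the median of all genes. Counts past the fold in these lists stand beside the 6.8% higher and 7.24% lower of all genes. The lower counts of ribosome biogenesis and quiescence genes lie near the latter share. Of 12 G1 entry genes 0 were higher and 2 lower, with a median of -0.09. They included the D cyclins Ccnd2 at -0.41 (-0.56 to -0.27) and Ccnd3 at -0.01 (-0.11 to 0.08) and their kinase Cdk6 at 0.21 (0.05 to 0.37). Of 20 ribosome biogenesis genes 0 were higher and 2 lower, with a median of -0.09, and the nucleolar genes Ncl at -0.29 (-0.44 to -0.15) and Npm1 at -0.35 (-0.53 to -0.17) were among the best covered. Of 19 quiescence genes 0 were higher and 2 lower, with a median of -0.05. The 2 were the immediate-early genes Egr1 at -0.32 (-0.45 to -0.20) and Fos at -0.35 (-0.58 to -0.13). Foxo3, a transcription factor that keeps HSCs at rest, was at -0.03 (-0.14 to 0.09), the antiproliferative gene Tob1 at -0.23 (-0.35 to -0.11) and the CDK inhibitor gene Cdkn2c at 0.07 (-0.22 to 0.35). The summed log2 ratios of these lists were -0.10, -0.12 and -0.12, and divided by fragments at gene starts they were 0.02, 0.0025 and 0.0036, all with intervals that hold 0. Without the 4 deepest cells they were -0.046 (-0.093 to 0.00058), -0.062 (-0.11 to -0.01) and -0.077 (-0.12 to -0.04), where the median of all genes was -0.02. The scaling by starts adds the same amount to every gene, so it moves these lists together with all others.

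HSC identity genes were close in both groups. Of 18 tested, 1 was higher and 0 were lower, beside the 6.8% and 7.24% of all genes. The list had a median of -0.03 and a summed level of 27.2 against 27.7 per 10000, a log2 ratio of -0.03 (-0.06 to 0.01). Mecom, a self-renewal factor, was at -0.14 (-0.22 to -0.06), Prdm16 at -0.05 (-0.14 to 0.04), Runx1 at 0.08 (-0.01 to 0.17), and the angiopoietin receptor gene Tek, the 1 past the fold, at 0.33 (-0.04 to 0.69).

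Markers of other blood and marrow cells were compared next, of which platelet genes such as Vwf are also used within HSCs. Counts past the fold in these short lists stand beside the 6.8% higher and 7.24% lower of all genes. Medians in rich cells stand beside the -0.05 of all genes. Of 4 B cell genes 0 were higher and 1 was lower, with a summed level of 2.12 against 2.08 per 10000, and the B cell factor Pax5 was at 0.04 (-0.14 to 0.21). Of 4 genes of progenitors outside the sort 0 were higher and 1 was lower, the myeloid factor gene Irf8 at -0.36 (-0.65 to -0.09). None of 6 T and NK cell genes passed the fold, nor did either of 2 granulocyte and monocyte genes. Of 6 erythroid genes 1 was higher, the erythropoietin receptor gene Epor at 0.47 (0.12 to 0.80), and of 9 endothelial and stromal genes 2 were lower. No mast cell gene had enough fragments, and that list summed to 0.0977 against 0.0987 per 10000. Megakaryocyte and platelet genes had 2 of 7 higher, 0 lower, a median of 0.17 and a summed log2 ratio of 0.10 (0.02 to 0.17). The summed ratio was 0.32 (0.17 to 0.46) in 1000 bp around starts, 0.045 (-0.05 to 0.14) under the stricter limits of the rich group and 0.11 (-0.02 to 0.24) in thinned cells, the last pair with intervals that hold 0. It was 0.15 (0.00 to 0.30) in RNA-rich only cells. The 2 were Gp9 at 0.49 (0.20 to 0.77) and Gp1ba at 0.39 (0.07 to 0.71), both of the von Willebrand factor receptor, whereas Vwf itself was at -0.06 (-0.21 to 0.08). In the 17 rich cells of a low triple share the summed log2 ratios were 0.40 (0.16 to 0.63) for erythroid genes from 152 fragments, 0.36 (0.04 to 0.66) for B cell genes from 90, 0.25 (0.03 to 0.46) for megakaryocyte and platelet genes from 182 and -0.60 (-0.99 to -0.24) for endothelial and stromal genes from 62. In the other 119 these 4 ratios were 0.02, -0.02, 0.08 and -0.09. The median of all genes was -0.14 in the 17 and -0.04 in the 119. Whether cells of other types were among the 17 was not tested.

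The genes with the largest ratios were not cell cycle genes. Among genes with at least 400 fragments, the 10 highest were Grm7, Lrrc4c, Reln, Epha6, Cntn4, Lrp1b, Tmem132d, Ptprd, Ptprt and Dpyd, most of them long genes best known from neurons, with log2 ratios from 2.24 (1.97 to 2.52) for Grm7 to 1.46 for Dpyd. The 4 deepest cells gave 57.7% of the rich fragments on Grm7 and 69.5% of those on Reln. Without those 4 cells the ratio was 1.16 for Grm7, 1.27 for Lrrc4c and 0.55 for Reln. All 10 were still higher in the remaining rich cells, by less. In ATAC-rich only cells Grm7 was at 3.10, Dpyd at 2.50, Ptprd at 2.41, Cntn4 at 2.20 and Ptprt at 1.60, above their ratios in rich cells. Lrrc4c, Reln, Epha6, Lrp1b and Tmem132d were lower there than in rich cells. High ratios of such genes were therefore not particular to cells rich in both readouts. The 10 lowest ran from Kcnj4 at -0.84 to -0.65, and included Gfi1, a repressor that restrains HSC division, at -0.65.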

How the data were processed

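The authors ran Cell Ranger ARC 2.0.2 on the mm10 reference (GRCm38), which maps reads, merges duplicate ATAC read pairs into fragments and calls cells, and for 1 preparation they deposited, per barcode, counts of fragments, UMIs, reads and genes, and the position of each fragment. No deposited value is normalized. The rich cells, the gene lists and the comparisons were chosen with earlier results of these data known. Of 42000180 fragments, 38419744 lay in called cells on chromosomes 1 to 19, X and Y. Fragments under 900 bp entered the overlap counts. Tiles of 500 bp recurrent in over 1% of called cells, 422 or, after collapsing, 48, were left out. Genes came from GENCODE vM21, promoter sequences from RefSeq on GRCm38.p6. The genes named are the 3 markers, the 3 with the most fragments and the highest and lowest ratio of each list (with at least 200 fragments), and the 10 highest and 10 lowest genes with at least 400 fragments. Members past the fold are named beyond this rule after their values were seen, and a few that the rule gives are not reported here. Intervals of shares are exact binomial, of ratios exact conditional Poisson, and of medians from order statistics, all at 95%. Shared ends collapsed, the triple share, its limit of 4% and leaving out the 4 deepest cells were chosen after seeing the data. The scripts were tested on simulated data. They used scipy 1.17.1, numpy 2.4.6, matplotlib 3.10.9 and pandas 2.3.3 under Python 3.11.15. Gene-level RNA counts were not analysed here, and the antibody tag counts were not used here.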

Additional observations from a re-analysis of the deposited data

How the results depend on the processing

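No paired analysis was possible because there was 1 preparation and no result comes from a test between samples. Shared ends collapsed turned the log2 ratio of multiply covered sites from negative to 1.59 and moved the share of marked rich cells to 12.5%. Divided by fragments at gene starts, the summed log2 ratios of the G1 entry, ribosome biogenesis and quiescence lists came to 0.023, 0.0025 and 0.0036, with intervals that hold 0, since this scaling shifts every gene alike, and those of the S phase and G2/M lists moved to 0.16 and 0.13. With 1000 bp around starts the G2/M ratio was -0.039. Without the 4 cells above 40000 fragments the S phase and G2/M ratios were 0.091 and 0.058, and those of the G1 entry, ribosome biogenesis and quiescence lists -0.046, -0.062 and -0.077, the first with an interval that now holds 0. With the 17 rich cells of a triple share under 4% alone the S phase and G2/M ratios were -0.045 and -0.19, but the median of all genes was -0.14 there, and the medians of both lists differed from it by -0.011 and -0.00088. Genes past the fold limit upward numbered 420 with 1000 bp around starts, 1999 divided by fragments at starts, 4429 with no minimum of fragments and 2614 in those 17 cells, and genes past it downward numbered 1338, 289, 2556 and 4808 under the same 4. In the 17 cells the median intronic share was 46.4%, mitochondrial reads 0.711%, fragments in peaks 58.9%, gene-poorest fragments 3.28%, dispersion 2.38 and distinct tiles 7504. The cause of these changes was not tested, though the 17 cells hold fewer fragments per gene by construction. The 2 filters of the study applied here, both on fragments in peaks, and leaving out the cells marked in the count of all fragments changed nothing, since no rich or ordinary cell failed or was marked there. Leaving out the 17 rich cells marked after collapsing was not run. Of the main results recomputed under other settings, 66 values moved by less than their error or by under 1.5 times. These 66 include the runs with the study filters and with marked cells left out, which could not change a value. The other 22 moved further, among them the reversed count of multiply covered sites and the negative S phase and G2/M ratios above, the latter a change of sign from values whose intervals held 0. Depth limits single genes, since the genes the naming rule gave from the lists had between 3 and 1510 fragments in rich cells.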

Other observations

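A triple share of at least 4% was also found in 59 of the 2811 measured called cells outside the rich group, 2.10% (1.60% to 2.70%). Their medians were 17480 fragments, 5799 UMIs and a triple share of 6.53%. Of called cells with 14000 to under 18000 fragments outside the rich group, 26 of 454, 5.73% (3.77% to 8.28%), reached 4%, and under 14000 fragments 9 of 2293, 0.392% (0.180% to 0.744%). In all, 178 of 2947 measured cells, 6.04% (5.21% to 6.97%), reached it.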
